A study of Mus musculus with 3 samples.

Results

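RNA from mouse cornea treated with PNU-282987 eyedrops was compared with RNA from sham-operated cornea, gene by gene. The members were all genes with at least 20 counts in the sham library or in the PNU-282987 library, which were 13904 of the 21760 genes in the table. Mice of the sham group had an incision over the region of the lacrimal gland that left the glands untouched, and mice of the treated group received PNU-282987 on the eye 3 times a day. A library from mice whose lacrimal gland was excised is given as a further level beside the genes described. The labels do not say whether the mice given PNU-282987 had an incision or had lost the gland, so the surgery and the drug cannot be told apart in this comparison. Strain, sex, age, day of sampling, dose and the number of corneas behind a library are likewise not given. Each group was 1 library, so a ratio compares libraries and not conditions, and the variation from mouse to mouse is not known.

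The cornea is the clear front of the eye, with a stratified epithelium on its surface, a collagenous stroma with keratocytes beneath it, and an endothelium on its inner face. The conjunctiva, which joins the cornea at the limbus, has a different surface epithelium that contains mucus-secreting goblet cells, and it is not part of the cornea proper. PNU-282987 is a selective agonist of the α7 nicotinic acetylcholine receptor, a ligand-gated ion channel that is known for restraining the release of tumour necrosis factor by macrophages. The series asked what this receptor does in dry eye disease, in which tear film, surface epithelium, nerves and immune cells are all involved.

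Total counts were 37703843 for sham, 39616004 for PNU-282987 and 37692972 for excision. Levels are given as counts or as CPM, which is the count brought to a common library size, here scaled by TMM (the trimmed mean of M-values). A fold is the ratio of the scaled counts, with its exact 95% interval. These intervals cover counting error only, and the variation from mouse to mouse is not part of them. The reads carry no molecular identifiers, so copies of the same molecule cannot be told from separate molecules, and the intervals may be too narrow. A gene was called higher or lower when it differed by at least 2-fold and its interval excluded equal levels. Where a library had 0 counts, 3 counts were put in its place, and the fold is then written as at least. The exact 95% interval of such a gene starts below that fold. Members reached the minimum in both libraries for 12980 genes, only in the PNU-282987 library for 323 and only in the sham library for 601. Near that minimum, Bhlha15, with 13 and 20 counts in sham and PNU-282987, was measured, and Krt77, with 15 and 19 counts, was not.

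The PNU-282987 library resembled the sham library in most genes, and 83.2% of the measured genes differed by less than 1.5-fold. The median log2 ratio was 0.00, with quartiles at -0.24 and 0.20. Of the measured genes, 354 were called higher in PNU-282987 (2.55%) and 681 lower (4.9%). Of those higher, 192 reached the minimum only in the PNU-282987 library, and of those lower, 367 only in the sham library. Calls were concentrated among genes of low count. With 20 to 49 counts in the higher library 31.1% of 1551 genes were called, with 100 to under 500 counts 6.93% of 3274, and with at least 5000 counts 0.954% of 1362, of which 10 were higher and 3 lower. Genes annotated as non-coding were called lower in 15.1% of 1023 cases and protein-coding genes in 4.09% of 12881. At any fold, the interval lay wholly above equal levels for 30.6% of the measured genes and wholly below for 28.1%. Counts of list members are to be read against these shares. The spread of ratios also depended on count. Log2 quartiles were -0.94 and 0.33 for genes with 20 to 49 counts in the higher library, and -0.07 and 0.25 with at least 5000. Medians of lists with many low-count genes are to be read against that lower range.

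**Figure D1:**
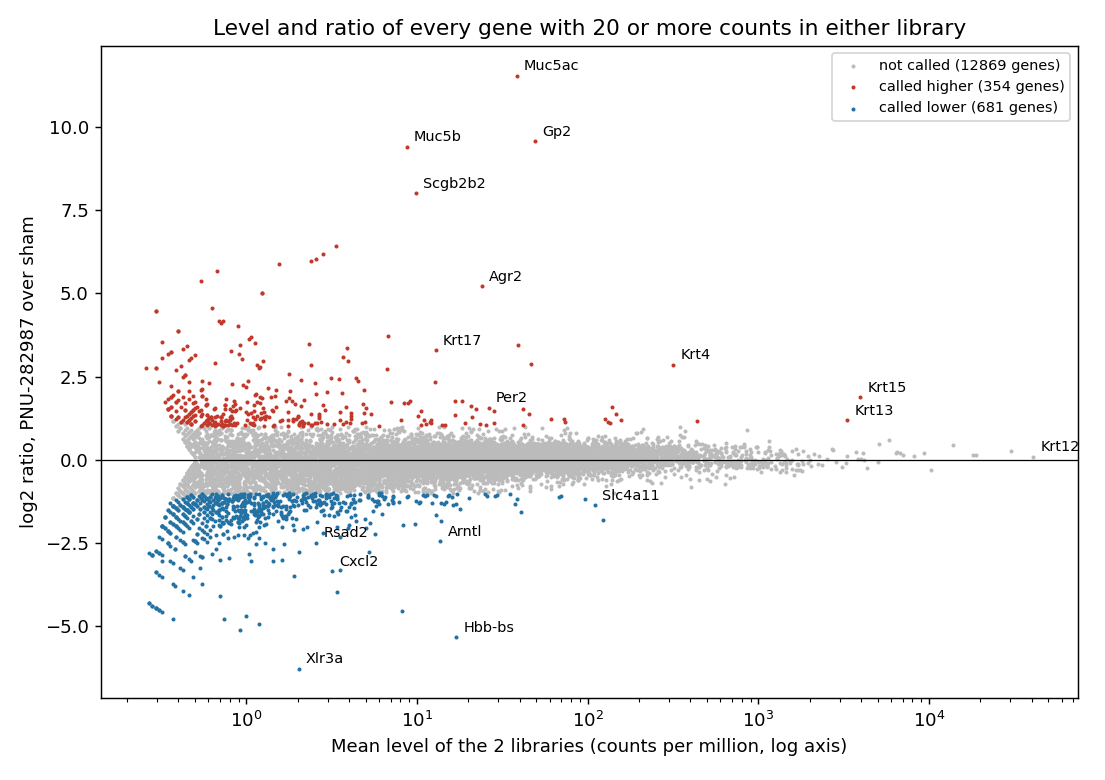
Each point is 1 of 13904 genes, with its mean level in the sham and PNU-282987 libraries (CPM, log axis) against the log2 ratio of PNU-282987 over sham. Called genes are coloured, and the mucin genes Muc5ac and Muc5b and the glycoprotein gene Gp2 stand above the others, while the most abundant keratin gene, Krt12, lies near 0.

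Products of goblet cells and exocrine glands held the largest ratios in either direction. Muc5ac (gene ID 17833) encodes the mucin that gives tear mucus its gel. It had 1 count in the sham library, 2980 in PNU-282987 and 11 in excision, which made it 2997-fold higher than in sham (95% interval 537 to 118412). Muc5b (gene ID 74180), the other gel-forming mucin of wet epithelia, had 1, 676 and 0 counts and was 680-fold higher (122 to 26892). Gp2 (gene ID 67133), a membrane glycoprotein of secretory epithelia, had 5, 3801 and 4 counts in the same order and was 765-fold higher (327 to 2356). All 3 genes were close to the detection limit in the sham and excision libraries and abundant in PNU-282987 alone. In bulk RNA, a different number of cells of a type and a different amount of RNA per cell cannot be told apart, here and in the results that follow.

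The machinery that makes mucus was higher by less. Agr2 (gene ID 23795), a disulfide isomerase needed for mucin folding, had 49 counts in sham, 1817 in PNU-282987 and 133 in excision and was 37.3-fold higher (28.1 to 50.6). Spdef (gene ID 30051), the transcription factor of goblet cell maturation, had 22, 94 and 4 counts and was 4.30-fold higher (2.68 to 7.18). Tff1, a small peptide secreted with mucins, had 0, 96 and 4 counts, at least 32.2-fold higher. Creb3l1, a transcription factor of secretory cells, had 29, 70 and 25 counts and was 2.43-fold higher (1.55 to 3.88). Of the 16 measured genes of the goblet and gel-forming mucin list, 7 were called higher and none lower, 15 had a ratio above 1, and the median log2 ratio was 0.44 against 0.00 over all genes. Of these 16, 4 reached the minimum only through the PNU-282987 library. Of the other 12, 3 were called higher, and their list median was 0.28 over all 12. Members that are not particular to goblet cells differed little: Xbp1, of the unfolded protein response, had 5697 and 6289 counts in sham and PNU-282987 and St6galnac1, a sialyltransferase, had 14862 and 15760. Muc2, the intestinal gel-forming mucin, had 122 and 132 counts, and Clca1, a secreted goblet cell protein, had 165 and 145.

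Secreted peptides of glands were found almost only in the PNU-282987 library. Scgb2b2 (gene ID 381970) and Scgb1b2 (gene ID 57426) encode secretoglobins, small secreted proteins of lacrimal, salivary and other glands. Scgb2b2 had 0 counts in sham, 768 in PNU-282987 and 0 in excision and was at least 257-fold higher (interval from 209). Scgb1b2 had 0, 186 and 0 counts, at least 62.4-fold higher (interval from 50.2). Esp6, an exocrine gland-secreted peptide of the family that carries pheromones in tears, had 0, 259 and 1 counts, at least 86.8-fold higher (interval from 70.1). These families have many similar copies, so reads of a relative may be counted under these names. In all 3 measured members of the list the sham library had 0 counts, of 10 members in the table, and the other 7 had from 0 to 8 counts in PNU-282987. The lacrimal gland acinar list as a whole was not raised in the same way, with 1 of 14 measured members called higher and a median of 0.25. Its called member was Wfdc18, a secreted protease-inhibitor-like protein, with 5, 29 and 36 counts in sham, PNU-282987 and excision. Pigr, the receptor that carries antibodies across epithelia into secretions, had 372, 608 and 583 counts, and lactoferrin (Ltf), an iron-binding protein of tears, had 920, 1486 and 995. The meibomian and sebaceous list had 1 of 15 members called higher, Far2, with a median of -0.05.

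Membrane-bound mucins, which form the glycocalyx of the ocular surface, went both ways. Muc16 had 0 counts in sham, 54 in PNU-282987 and 1 in excision, and was at least 18.1-fold higher. Muc1 had 590, 1619 and 2445 counts and was 2.76-fold higher (2.51 to 3.04). Muc4, on the other hand, was 1.22-fold lower (50645 and 41394 counts, interval 1.20 to 1.23) and Muc21 was 1.55-fold lower (24840 and 15894, 1.52 to 1.59). Of 9 measured members 2 were called higher and none lower, and the median was 0.04, which becomes -0.04 when libraries are scaled to total counts.

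**Figure D2:**
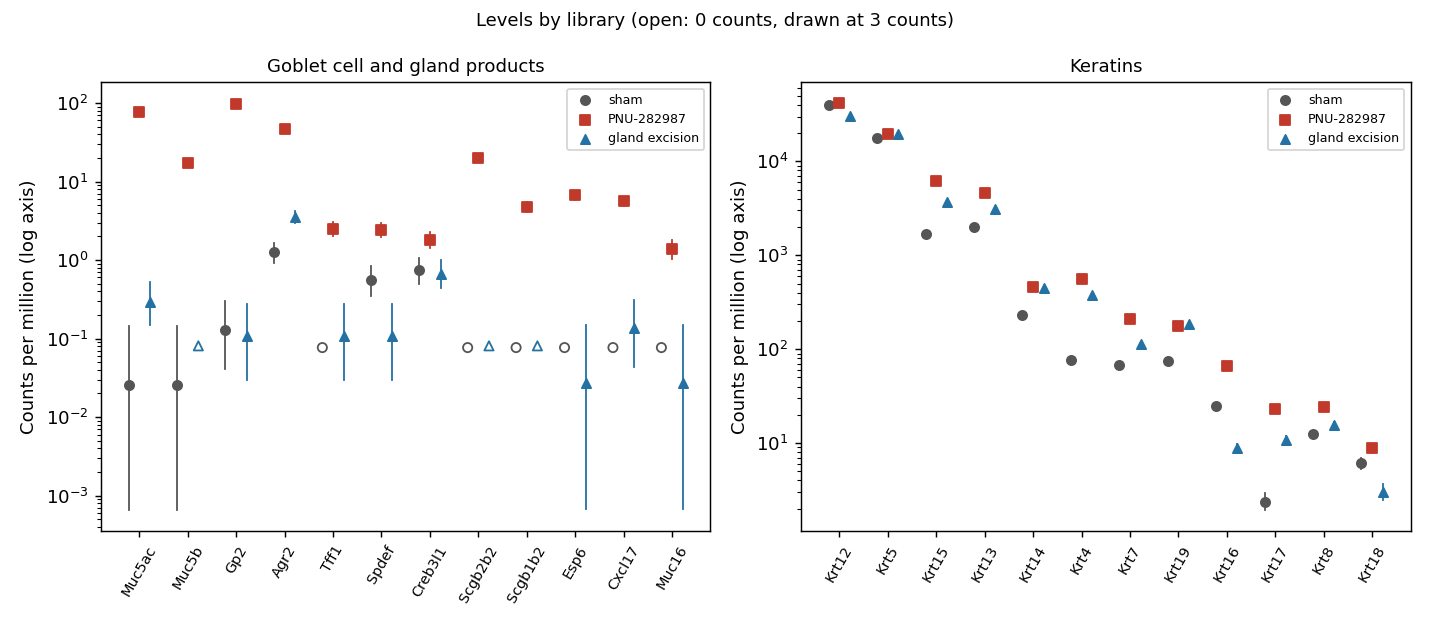
Level of goblet cell and gland products (left) and of keratins (right) in the sham, PNU-282987 and gland excision libraries, in CPM on a log axis, with bars for the exact 95% counting interval of each library. Open symbols had 0 counts and are drawn at 3 counts. On the left the PNU-282987 library stands above both others for each gene shown, while Krt12 and Krt5 on the right lie close together in the libraries.

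Keratins, the filament proteins that mark types of epithelium, were the abundant genes that differed most. Krt15 (gene ID 16665), a keratin of basal and limbal cells, had 65935 counts in sham, 241041 in PNU-282987 and 137853 in excision and was 3.68-fold higher (3.64 to 3.71), the largest difference in CPM of any called gene (1688 and 6207 CPM). Krt13 (gene ID 16663), a keratin of mucosal and conjunctival epithelium, had 78979, 179377 and 114747 counts and was 2.28-fold higher (2.27 to 2.30). Krt4, its usual partner, had 3013, 21643 and 14142 counts and was 7.22-fold higher (6.95 to 7.51). For these 3 keratins the excision library lay between sham and PNU-282987.

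Other keratins of simple, conjunctival or activated epithelium were also called higher. Krt7 had 2679, 8081 and 4189 counts in sham, PNU-282987 and excision and was 3.03-fold higher (2.90 to 3.17). Krt19, found in conjunctiva and limbus, had 2942, 6825 and 6819 counts and was 2.33-fold higher (2.23 to 2.44). Krt17, which epithelium makes on injury, had 93, 907 and 397 counts and was 9.81-fold higher (7.92 to 12.3). Krt16, its relative, had 979, 2546 and 326 counts and was 2.62-fold higher (2.43 to 2.82). Of 22 measured keratins 7 were called higher and none lower, 20 had a ratio and an interval above equal levels, and the median log2 ratio was 0.79. Krt14, the basal partner of Krt5, had 9011 and 17896 counts and came just under 2-fold.

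The keratins that define corneal epithelium differed little. Krt12, the cornea-specific keratin, had 1541851 counts in sham, 1634592 in PNU-282987 and 1135144 in excision and was 1.07-fold higher (1.06 to 1.07). Krt5 had 693158 and 767997 counts in sham and PNU-282987. Pax6, the master transcription factor of the eye, had 22930, 22491 and 20945 counts and did not differ beyond counting error (1.01-fold lower, 0.995 to 1.03). Aldh3a1, a crystallin-like enzyme of corneal cells, was 1.11-fold higher (671828 and 739271 counts, 1.10 to 1.11). In the corneal epithelial identity list 4 of 28 members were called higher and none lower, with a median of 0.17. Those called were Krt15, Krt16, Muc16 and Ly6d, a surface protein of stratified epithelium with 46 and 106 counts. The labelled tissue was thus present in both libraries by its defining markers.

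Among conjunctival epithelium markers 7 of 24 measured were called higher and 1 lower, with a median of 0.50, and their summed level was 16799.7 CPM in sham, 23097 in PNU-282987 and 21461 in excision. Besides the keratins and Muc1, these were Wfdc2, a secreted protease-inhibitor-like protein with 1702, 3927 and 2171 counts, and Cxcl17, a mucosal chemokine. Cxcl17 had 0, 217 and 5 counts (at least 72.7-fold higher, interval from 58.7). S100a8 was the member called lower. The goblet cell list, whose defining genes Muc5ac and Spdef are given above, summed to 597 CPM in sham, 896 in PNU-282987 and 601 in excision. The part of conjunctival tissue in the keratin, mucin and secretory differences was not tested.

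Sugar-transferring enzymes that decorate mucins were partly higher, with 5 of 26 called higher, 1 lower and a median of 0.16. Galnt6, which starts O-linked chains, had 18 counts in sham, 69 in PNU-282987 and 9 in excision and was 3.86-fold higher (2.27 to 6.88). Fut9, a fucosyltransferase, had 23, 85 and 39 counts and was 3.72-fold higher (2.32 to 6.18). B3gnt3, which extends core chains, had 479, 1152 and 661 counts and was 2.42-fold higher (2.17 to 2.70). Chst2, a sulfotransferase, was the member called lower, with 39 and 13 counts. Cmah, the enzyme that makes N-glycolylneuraminic acid, had 3323, 7159 and 5177 counts and was 2.17-fold higher (2.08 to 2.26).

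Further genes with large ratios or CPM differences were named by that size alone and share no list. Sptssb, a subunit that sets the chain length made by serine palmitoyltransferase, had 37 counts in sham, 490 in PNU-282987 and 108 in excision and was 13.3-fold higher (9.53 to 19.1). Car12, a membrane carbonic anhydrase, had 27, 276 and 87 counts and was 10.3-fold higher (6.91 to 15.9). Cyp2a5, a cytochrome P450 of airway and liver, had 433, 3198 and 1347 counts and was 7.43-fold higher (6.72 to 8.23). Acsm1, a medium-chain acyl-CoA synthetase, had 3715, 8434 and 4751 counts and was 2.28-fold higher (2.20 to 2.37). In each of these the excision library was intermediate. Several further genes were picked after their values were seen: the transcription factors Foxa1 (38, 206 and 43 counts, 5.45-fold higher, 3.84 to 7.92) and Barx2 (43, 229 and 212 counts, 5.36-fold higher), and the exocytosis gene Rab27a (403, 1219 and 675 counts, 3.04-fold higher). Ide, the insulin-degrading enzyme, had 3182, 8281 and 3053 counts and was 2.62-fold higher in PNU-282987 (2.51 to 2.73).

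Junction genes, which hold epithelial cells together and seal the surface, were slightly and broadly higher. Of 35 measured members, 30 had a ratio above 1, 27 had an interval wholly above equal levels, and the median log2 ratio was 0.21. Tjp1, the scaffold of tight junctions, had 9269 and 11757 counts in sham and PNU-282987 and was 1.28-fold higher (1.24 to 1.31), and Dsg3, a desmosomal cadherin, was 1.26-fold higher (7023 and 8775 counts, 1.22 to 1.30). Cldn2, a pore-forming claudin, was the single member past 2-fold, with 41 counts in sham, 159 in PNU-282987 and 27 in excision (3.90-fold higher, 2.75 to 5.64).

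Genes that epithelium uses in wounding and in defence against proteases differed in both directions. Serpinb3a (gene ID 20248), a protease inhibitor of squamous epithelium, had 256 counts in sham, 2761 in PNU-282987 and 1308 in excision and was 10.8-fold higher (9.54 to 12.4). Serpinb2, a plasminogen activator inhibitor of epithelium and macrophages, had 3, 52 and 18 counts and was 17.4-fold higher (5.64 to 87.3). Plaur, the urokinase receptor, went the other way with 58, 17 and 24 counts (3.39-fold lower, 1.95 to 6.21), and the matrix protease gene Mmp10 had 52, 18 and 7. The wound keratin and migration list had 5 of 29 members called higher, 3 lower and a median of 0.00. Of its 25 members that reached the minimum in both libraries, 4 were called higher and 0 lower, and the median was 0.14. The serpin list had 5 of 19 higher and 2 lower, and 2 and 1 of the 15 that reached the minimum in both. The cornified envelope list had 1 of 16 in each direction: Cdsn, the corneodesmosome protein, was 2.75-fold higher (221 and 605 counts, 2.36 to 3.23), and Lce3b was 2.87-fold lower (205 and 71 counts, 2.18 to 3.82), with reads possibly shared among the late cornified envelope genes.

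Lipoxygenases, which make hydroxylated fatty acids in surface epithelium, were higher in part. Alox12e, an epidermal 12-lipoxygenase, had 165 counts in sham, 825 in PNU-282987 and 1731 in excision and was 5.03-fold higher (4.25 to 5.98). Alox15 had 57, 122 and 505 counts and was 2.15-fold higher (1.56 to 3.00). Alox5ap, which leukocytes need to make leukotrienes, had 33, 4 and 54 counts and was 8.20-fold lower (2.92 to 31.9). Ptger3, a prostaglandin E receptor, had 28, 2 and 3 counts and was 13.9-fold lower (3.51 to 121). Of 22 measured genes of lipoxygenases and prostaglandin enzymes 4 were called higher and 2 lower. Of the 19 that reached the minimum in both libraries, 3 were called higher and 0 lower.

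Interferon-stimulated genes, which encode antiviral effectors, were split, with the strongest differences downward. The signal reaches these genes through transcription factors that bind the interferon-stimulated response element (ISRE). The promoters of Isg15 and Rsad2 are printed to show such elements in genes whose values follow. They are RefSeq windows of 250 bases before to 50 after the annotated start, in build GRCm38.p6, on the minus strand, at chr4:156200769-156201068 and chr12:26456403-26456702. Capitals mark matches, on either strand, to GAAA followed after any 2 bases by another GAAA, and in Isg15 3 matches overlap.
Isg15: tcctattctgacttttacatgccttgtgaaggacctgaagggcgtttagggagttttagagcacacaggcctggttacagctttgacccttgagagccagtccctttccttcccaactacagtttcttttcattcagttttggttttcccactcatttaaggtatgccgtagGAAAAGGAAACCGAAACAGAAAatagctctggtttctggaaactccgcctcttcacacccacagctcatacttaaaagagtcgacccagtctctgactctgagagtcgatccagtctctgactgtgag
Rsad2: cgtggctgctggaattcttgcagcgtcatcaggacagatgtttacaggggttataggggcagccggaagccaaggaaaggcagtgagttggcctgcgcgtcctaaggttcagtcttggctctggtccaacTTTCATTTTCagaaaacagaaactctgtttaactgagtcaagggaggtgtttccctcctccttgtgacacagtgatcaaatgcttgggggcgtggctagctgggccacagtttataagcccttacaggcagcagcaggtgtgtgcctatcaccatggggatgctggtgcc
The same letters were found in 16 of the 33 interferon-stimulated genes with a window (48.5%) and in 3.59% of the 11043 measured genes with a window.

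Isg15, a ubiquitin-like modifier, had 3731 counts in sham, 1732 in PNU-282987 and 20819 in excision and was 2.14-fold lower than in sham (2.02 to 2.27). Rsad2, the antiviral enzyme viperin, had 170, 30 and 2005 counts and was 5.63-fold lower (3.81 to 8.61). Ifi27l2a had 370, 118 and 13664 counts and was 3.12-fold lower (2.53 to 3.87). The excision library, which had the highest level of each of these genes, was thus on the other side of sham. Oas2, a sensor of double-stranded RNA, had 804, 318 and 9010 counts and was 2.51-fold lower (2.21 to 2.87). Zbp1, a sensor of left-handed nucleic acid, had 593, 278 and 3798 counts and was 2.12-fold lower (1.84 to 2.45). Of 44 measured members 8 were called lower (18.2%) and 2 higher, and the list median was -0.27. The intervals lay wholly below equal levels for 23 members and wholly above for 14.

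Those that were higher included Ly6e, a membrane protein that restricts viral entry, with 10561 counts in sham, 23478 in PNU-282987 and 26267 in excision (2.24-fold higher, 2.18 to 2.29), and Epsti1, with 56, 112 and 186 counts (2.01-fold, 1.45 to 2.82), which was no longer called with total count scaling. The summed level of the list was higher in PNU-282987 (3108 and 3514 CPM), against the sign of its median, with Ly6e at 270.4 and 604.6 CPM. Usp18, a brake on interferon signalling, did not differ beyond counting error, at 302 and 337 counts. The ISRE letters were in 3 of the 4 called-lower members with a window and in 13 of the 29 others. Interferon receptors and regulators had a median of 0.09, with 1 of 23 called higher, Irf8. Guanylate-binding and immunity-related GTPases, which interferon-γ raises, had 1 of 15 called lower, Gbp9 (96, 45 and 1030 counts), and a median of -0.27, which was 0.10 with a minimum of 100 counts.

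Some genes of MHC class II, which presents antigen to helper T cells, were higher. Cd74, the invariant chain of MHC class II, had 282 counts in sham, 591 in PNU-282987 and 2297 in excision and was 2.11-fold higher (1.83 to 2.44), a call lost with total count scaling. H2-Aa had 116, 301 and 796 counts and was 2.61-fold higher (2.10 to 3.26). H2-Ab1 had 94, 204 and 736 counts and was 2.18-fold higher (1.70 to 2.82). H2-Eb1 had 119, 253 and 969 counts and was 2.14-fold higher (1.71 to 2.68). These 4 were called higher of 9 measured class II genes, with a list median of 0.08, while H2-DMa, which loads peptides, had 120 and 66 counts and H2-DMb1 121 and 118. In the class I list no gene of 21 was called, and the median was 0.11. The difference between the classes was not tested. Of dendritic and Langerhans cell markers 1 of 6 measured was called higher, Irf8 with 46, 111 and 102 counts, and the summed level of that list was 257 CPM in sham and 233 in PNU-282987. The part of dendritic cells in the class II difference was not tested.

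**Figure D3:**
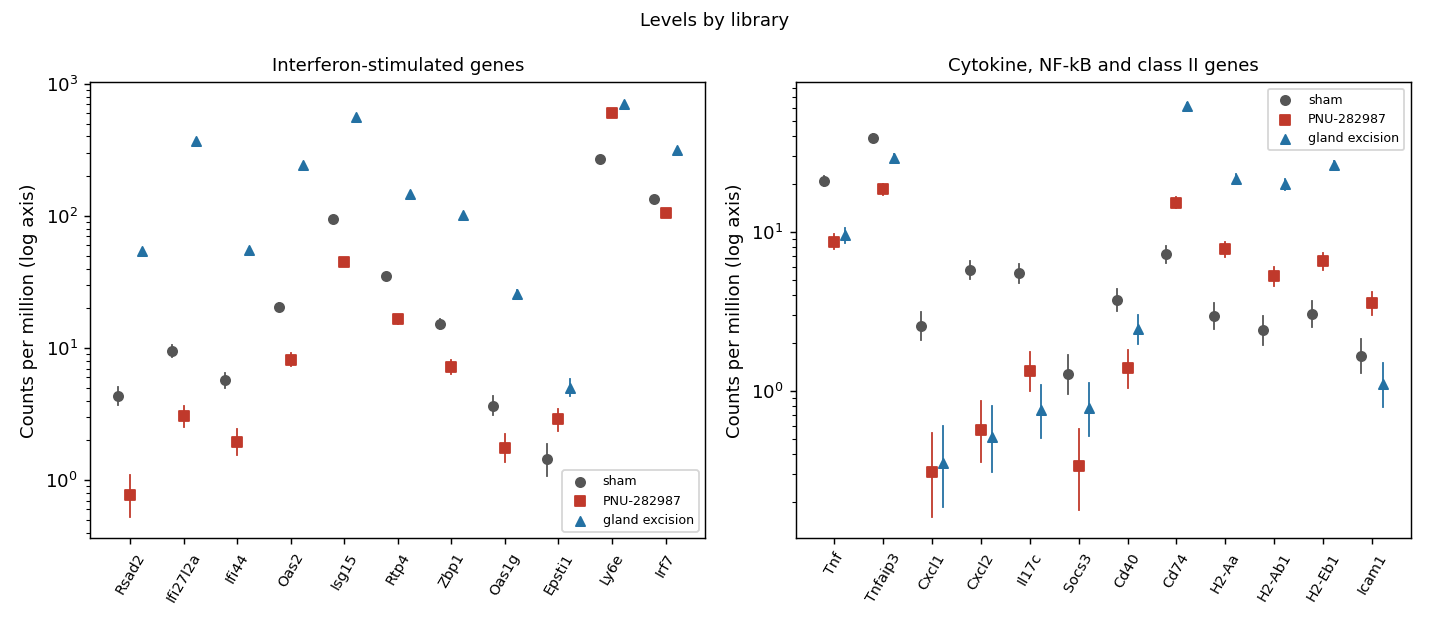
Level of interferon-stimulated genes (left) and of cytokine, NF-kB and MHC class II genes (right) in the sham, PNU-282987 and gland excision libraries, in CPM on a log axis, with bars for the exact 95% counting interval of each library. On the left, Isg15, Rsad2 and Ifi27l2a were lowest in PNU-282987 and highest in excision. On the right, Tnf, Cxcl1 and Cxcl2 were lower than sham in both other libraries.

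Of cytokines downstream of NF-kB, the pathway that the α7 receptor is known to dampen in macrophages, a few were lower in PNU-282987 than in sham. Tnf (gene ID 21926), tumour necrosis factor, had 816 counts in sham, 337 in PNU-282987 and 352 in excision and was 2.41-fold lower (2.12 to 2.74). Cxcl2 (gene ID 20310), a chemokine that attracts neutrophils, had 225, 22 and 19 counts and was 10.2-fold lower (6.55 to 16.6). Cxcl1 (gene ID 14825), which has the same role, had 100, 12 and 13 counts and was 8.29-fold lower (4.54 to 16.6). For each of these the PNU-282987 and excision libraries were close to each other and the sham library was high. Il17c, an epithelial cytokine, had 214, 52 and 28 counts and was 4.09-fold lower (3.01 to 5.65). Tnfaip3, the feedback inhibitor A20, had 1520, 717 and 1083 counts and was 2.11-fold lower (1.93 to 2.31).

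The NF-kB subunits themselves differed little or in the other direction. Nfkb1 had 2318 and 3113 counts in sham and PNU-282987 and was 1.35-fold higher (1.28 to 1.43), and Rela had 2059 and 2216. Nfkbie, an inhibitor subunit, had 22, 71 and 28 counts and was 3.25-fold higher (1.99 to 5.50), and Icam1, an adhesion molecule, had 65, 138 and 41 and was 2.14-fold higher (1.58 to 2.91). In the NF-kB response list 4 of 25 were called lower and 2 higher, with a median of 0.06, or -0.02 with total count scaling. Chemokines and their receptors had 6 of 14 called lower and 3 higher, and 3 and 1 of the 9 that reached the minimum in both libraries. Those lower included Ccl28, a mucosal chemokine (28, 1 and 4 counts, 27.8-fold lower, 4.60 to 1138), and Cxcl14 (135, 63 and 141). Those higher were Cxcl17, Ccl9 (6, 57 and 26 counts, 9.55-fold, 4.13 to 27.1) and Ccl6 (30, 108 and 95 counts, 3.62-fold, 2.40 to 5.62).

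Genes used to sort macrophages into classical (M1) and alternative (M2) states gave a mixed picture. Among M1-type genes 3 of 10 measured were called lower and none higher, with a median of -0.19. They were Tnf, the costimulatory receptor gene Cd40 (146, 54 and 91 counts in sham, PNU-282987 and excision, 2.69-fold lower, 1.95 to 3.75) and Socs3, a feedback inhibitor of STAT3 (50, 13 and 29 counts, 3.82-fold lower, 2.05 to 7.67). Socs3 reached the minimum only through the sham library. Of the 8 M1-type genes that reached it in both libraries, 2 were called lower, and the median was -0.14. Under the minimum were Nos2, with 6, 8 and 16 counts, and Il1b, with 10, 2 and 12. None of 9 measured M2-type genes was called, and the median was -0.05, or 0.24 with a minimum of 100 counts. Arg1, arginase, had 9388, 12197 and 10958 counts and was 1.31-fold higher (1.27 to 1.34), Mrc1 had 6, 3 and 33, and Cd163 had 0, 0 and 3. Il1rn, the interleukin-1 receptor antagonist, had 714, 1305 and 741 counts and was 1.84-fold higher (1.68 to 2.02).

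Macrophage markers showed no common direction. Cd68, a lysosomal protein of macrophages and other cells, had 494 counts in sham, 746 in PNU-282987 and 834 in excision and was 1.52-fold higher (1.35 to 1.71). Adgre1, which encodes F4/80, had 22, 23 and 37 counts, and the difference from sham was not detectable at this depth (1.05-fold, 0.560 to 1.98). Lyz2 had 283, 483 and 566 counts. Fcgr3 (67, 26 and 84 counts) and the monocyte gene Ly6c2 (37, 5 and 26 counts), which resembles Ly6c1, were called lower. Of 23 measured members 2 were lower and none higher, with a median of -0.08, or 0.02 with a minimum of 100 counts.

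Blood and granulocyte transcripts were among the lowest groups in PNU-282987. Hbb-bs, an adult β-globin gene, had 1291 counts in sham, 32 in PNU-282987 and 224 in excision and was 40.1-fold lower (28.3 to 58.9). Hba-a1, an α-globin gene, had 612, 26 and 122 counts and was 23.4-fold lower (15.8 to 36.1). Both have near-identical copies, Hbb-bt (251, 16 and 16 counts) and Hba-a2 (251, 25 and 64), and the split of reads among them is uncertain. The 4 globin genes were called lower of 6 measured red blood cell genes, while Alas2 (399 and 274 counts) and Bpgm (997 and 1061) differed by less. The summed level of the list was 98.2 CPM in sham and 37.2 in PNU-282987, and Hbb-bs alone went from 33.1 to 0.824 CPM, with 6.03 CPM in excision.

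Neutrophil granule proteins went with them. Mpo, myeloperoxidase, had 515 counts in sham, 131 in PNU-282987 and 112 in excision and was 3.91-fold lower (3.22 to 4.77). Elane, neutrophil elastase, had 602, 156 and 132 counts and was 3.84-fold lower (3.21 to 4.61). Prtn3, proteinase 3, had 299, 87 and 67 counts and was 3.42-fold lower (2.68 to 4.39), and Ctsg, cathepsin G, had 102, 31 and 23, and was chosen with its values known. These primary granule genes are made mainly in immature granulocytes of the marrow. Of later granule genes, Camp had 74, 9 and 9 counts and was 8.18-fold lower (4.08 to 18.6), and Ngp had 34, 2 and 6 and was 16.9-fold lower (4.33 to 145). S100a9, abundant in mature neutrophils but also made by epithelium, had 718, 617 and 34 counts. In all, 8 of 16 measured neutrophil genes were called lower and none higher, with a median of -1.16, and -0.72 over the 13 that reached the minimum in both libraries. Ly6g, a defining surface marker, had 1, 1 and 0 counts, and Csf3r had 5, 9 and 8. Neutrophil-attracting Cxcl1 and Cxcl2 and the globins were low in the same library, and the part of blood in the sham sample was not tested.

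Other leukocytes were near the detection limit. Of 27 T and NK cell genes with a row, 1 reached the minimum, and Cd3g had 0 counts in sham, 0 in PNU-282987 and 28 in excision. Ptprc, the common leukocyte antigen, had 6, 17 and 36 counts. Jchain, of plasma cells, was called lower with 27, 11 and 24, and Hdc, the histamine-forming enzyme of mast cells, had 22, 1 and 0 (21.9-fold lower, 3.54 to 903).

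Cell cycle genes parted by phase. Genes of mitosis were lower in PNU-282987, and genes of DNA replication were slightly higher. Mitotic genes are repressed and activated through the cell cycle homology region (CHR) and CCAAT boxes. The promoters of Ccnb2, Cenpf and Mki67, which were called lower, are printed to show these elements. They are RefSeq windows in GRCm38.p6 on the minus strand at chr9:70421505-70421804, chr1:189688037-189688336 and chr7:135716330-135716629. Capitals mark TTTGAA or CCAAT on either strand.
Ccnb2: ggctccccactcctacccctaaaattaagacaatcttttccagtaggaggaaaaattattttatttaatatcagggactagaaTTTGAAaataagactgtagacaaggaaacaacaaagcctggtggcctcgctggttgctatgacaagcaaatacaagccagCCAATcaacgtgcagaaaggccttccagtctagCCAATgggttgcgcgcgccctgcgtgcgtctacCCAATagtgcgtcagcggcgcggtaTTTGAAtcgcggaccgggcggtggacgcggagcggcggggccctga
Cenpf: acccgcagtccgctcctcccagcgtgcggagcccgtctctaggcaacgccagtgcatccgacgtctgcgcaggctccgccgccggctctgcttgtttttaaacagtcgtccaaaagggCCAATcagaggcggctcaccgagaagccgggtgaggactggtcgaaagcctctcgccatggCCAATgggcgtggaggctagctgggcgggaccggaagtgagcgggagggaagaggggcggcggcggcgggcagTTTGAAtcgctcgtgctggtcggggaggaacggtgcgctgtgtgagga
Mki67: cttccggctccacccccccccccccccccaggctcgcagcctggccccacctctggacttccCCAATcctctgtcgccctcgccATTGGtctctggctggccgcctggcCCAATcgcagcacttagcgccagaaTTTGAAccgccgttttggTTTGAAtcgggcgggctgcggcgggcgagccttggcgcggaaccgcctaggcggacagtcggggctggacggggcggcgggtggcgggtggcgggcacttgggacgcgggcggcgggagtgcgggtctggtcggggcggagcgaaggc
TTTGAA was found in 19 of 25 mitosis genes with a window (76%), in 3 of 25 replication genes (12%) and in 14.7% of the measured genes with a window. CCAAT was found in 22 of 25 (88%), 17 of 25 (68%) and 42.8%. Among the mitosis genes, TTTGAA was in 4 of the 6 called-lower genes with a window and in 15 of the 19 others.

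Mki67, the proliferation antigen, had 2097 counts in sham, 919 in PNU-282987 and 1513 in excision and was 2.27-fold lower (2.10 to 2.45). Cenpf, a kinetochore protein, had 764, 310 and 503 counts and was 2.45-fold lower (2.14 to 2.81). Ccnb2, cyclin B2, had 683, 318 and 459 counts and was 2.14-fold lower (1.87 to 2.45). For all 3 the excision library lay between sham and PNU-282987. Cenpe, a motor of the kinetochore, had 379, 149 and 235 counts and was 2.53-fold lower (2.09 to 3.08). Of 30 mitosis genes, all of them measured, 7 were called lower (23.3%) and none higher, 29 had a ratio below 1, and 28 had an interval wholly below equal levels. The median log2 ratio was -0.61. Racgap1, of the central spindle, was the exception, with 1953 and 1989 counts.

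Among replication genes, Mcm2, a subunit of the replicative helicase, had 539 counts in sham, 1038 in PNU-282987 and 1159 in excision and was 1.94-fold higher (1.74 to 2.15). Cdc6, which loads the helicase, had 116, 221 and 188 counts and was 1.92-fold higher (1.52 to 2.42). Pcna, the sliding clamp, had 3088, 3630 and 3563 counts. None of 30 members was called, 26 had a ratio above 1, 20 had an interval wholly above equal levels, and the median was 0.29. The excision library resembled the PNU-282987 library in the replication genes named here.

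**Figure D4:**
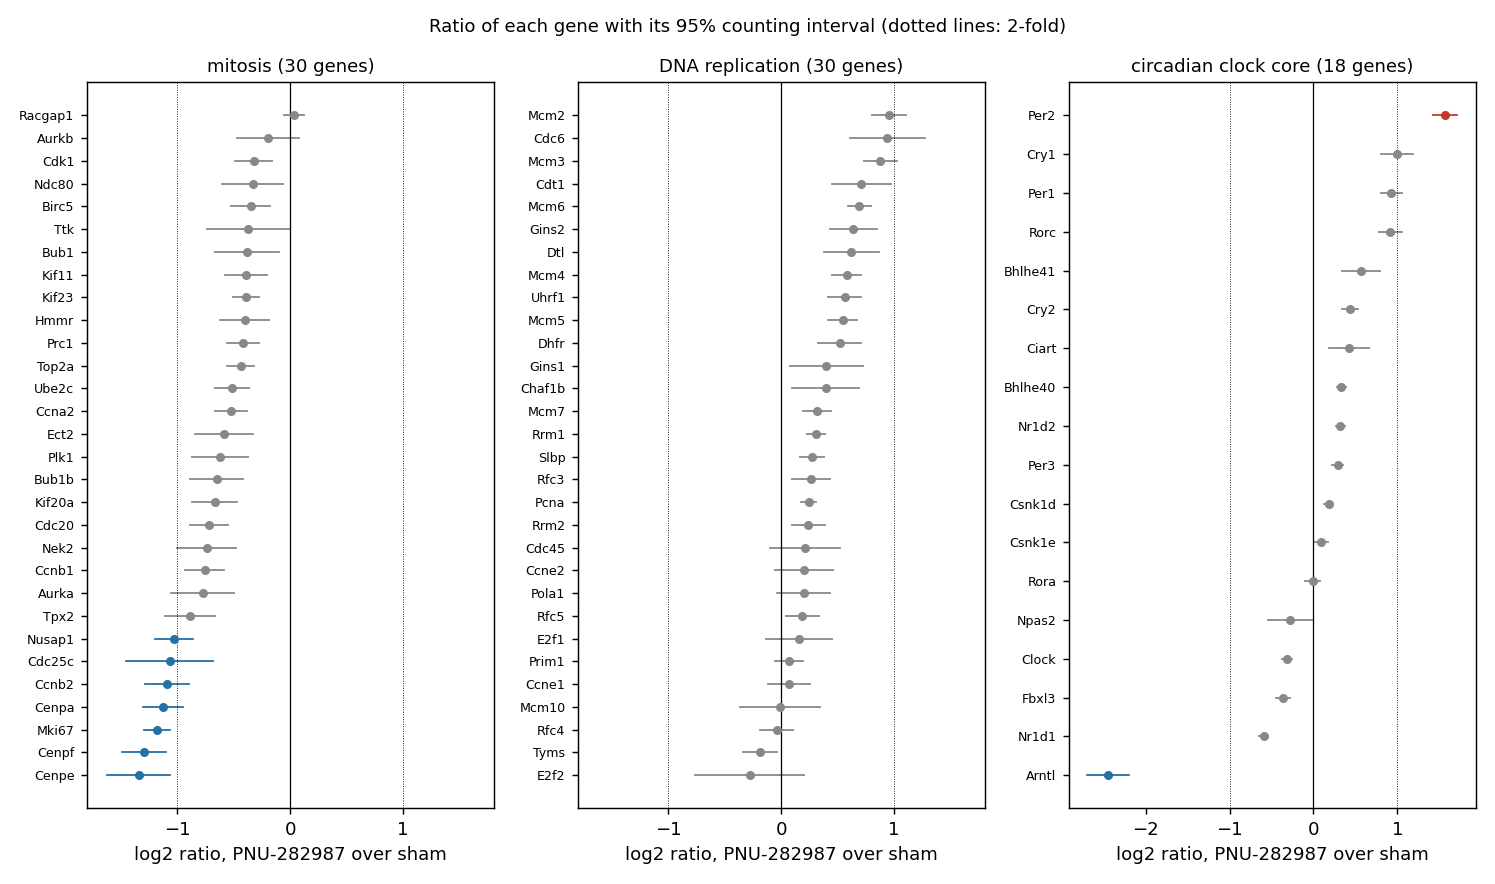
Log2 ratio of PNU-282987 over sham for genes of mitosis (30), DNA replication (30) and the circadian clock core (18), with the exact 95% counting interval as bars and dotted lines at 2-fold. Points lie mostly left of 0 for mitosis and right of 0 for replication, and in the clock panel Per2 and Arntl stand at opposite ends.

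Genes of the circadian clock formed a pattern with opposite ends. The clock runs on activators, Arntl and Clock, that drive the repressor genes Per and Cry through E-boxes, and the time of day sets their levels. Arntl (gene ID 11865), which encodes BMAL1, had 903 counts in sham, 165 in PNU-282987 and 615 in excision and was 5.44-fold lower (4.60 to 6.46). Per2 (gene ID 18627) had 518, 1523 and 988 counts and was 2.96-fold higher (2.67 to 3.27). Per1 had 776, 1468 and 2225 counts and was 1.90-fold higher (1.74 to 2.08). Cry1 had 351, 697 and 358 counts, just under 2-fold. Nr1d1, the repressor REV-ERBα, had 6023, 3968 and 8786 counts and was 1.51-fold lower (1.45 to 1.57). The core list had 1 of 18 called in each direction, a median of 0.31, and intervals wholly above equal levels for 12 members and wholly below for 5.

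Outputs of the clock differed in both directions, and those past 2-fold were higher. Dbp, a transcription factor under direct clock control, had 3814 counts in sham, 5677 in PNU-282987 and 5159 in excision and a higher level in PNU-282987 (interval 1.44-fold to 1.56-fold). Tef had 7804, 12062 and 8834 counts and was 1.55-fold higher (1.51 to 1.60). Usp2, a deubiquitinase, had 287, 651 and 385 counts and was 2.28-fold higher (1.98 to 2.63). Of 19 outputs 2 were called higher, Usp2 and Fmo2, and none lower, 12 had a ratio above 1 and 7 below, and the median was 0.33. The E-box CACGTG was in 4 of the 13 core clock genes with a window, in 5 of the 16 outputs and in 11.3% of measured genes. The labels give no hour of sampling, so treatment and time of day cannot be told apart for these genes.

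Glucocorticoid-responsive genes, which also follow the day, were higher for a few. Fkbp5, a chaperone of the glucocorticoid receptor, had 3211 counts in sham, 7077 in PNU-282987 and 3302 in excision and was 2.22-fold higher (2.13 to 2.31). Tsc22d3, which encodes GILZ, had 3701, 6074 and 6155 counts and was 1.65-fold higher (1.58 to 1.72). Klf9 had 223, 414 and 251. Of 19 genes 1 was called higher and the median was 0.10. Immediate early genes, which respond within minutes of handling, had 1 of 29 called lower, Dusp2, and a median of -0.08, with Fos at 1844, 1421 and 2106 counts. Heat shock genes had 1 of 28 called higher, Hspb8, and a median of 0.12.

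Among genes of the corneal endothelium a few were lower in PNU-282987 than in sham. Slc4a11 (gene ID 269356), the borate transporter family member that keeps the corneal endothelium pumping, had 6183 counts in sham, 2379 in PNU-282987 and 1577 in excision and was 2.58-fold lower (2.46 to 2.71). Slc16a3, a lactate transporter, had 138, 20 and 16 counts and was 6.86-fold lower (4.27 to 11.6). Col8a2, a collagen of Descemet's membrane, had 12972, 7930 and 2555 counts and was 1.63-fold lower (1.58 to 1.67). Of 21 endothelial genes 2 were called lower and none higher, 11 had an interval wholly below equal levels and 4 wholly above, and the median was -0.20.

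Type IV collagens, the network of basement membranes, were described after their values were seen. Col4a3 had 2375 counts in sham, 803 in PNU-282987 and 399 in excision and was 2.94-fold lower (2.71 to 3.19). Its partner Col4a4 had 1840, 891 and 279 counts and was 2.05-fold lower (1.89 to 2.23). Col4a2 had 1311, 641 and 338 counts and was 2.03-fold lower (1.85 to 2.24). Of the other chains, Col4a6 had 814, 388 and 253 counts (2.09-fold lower, 1.85 to 2.36), Col4a1 had 1788, 1028 and 494 and Col4a5 had 962, 608 and 503, the last 2 not called. Npnt, nephronectin, an integrin ligand of basement membranes, had 5213, 2299 and 692 counts and was 2.25-fold lower (2.15 to 2.37). Tspan6, a tetraspanin, had 3652, 1667 and 524 counts and was 2.18-fold lower (2.06 to 2.31). For each of these genes the excision library was the lowest.

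Most keratocyte and stromal genes had a ratio below 1. Kera, keratocan, had 7395 counts in sham, 3716 in PNU-282987 and 3217 in excision and was 1.98-fold lower (1.90 to 2.06). Lum, lumican, had 6358, 3626 and 3708 counts and was 1.74-fold lower (1.67 to 1.82). Col1a1 had 10154, 7653 and 9332 counts and was 1.32-fold lower (1.28 to 1.36). Of 33 members 28 had a ratio below 1, 26 had an interval wholly below equal levels, and the median was -0.53. Col5a1 (1081, 489 and 669 counts) and Col5a3 (26, 3 and 16), which nucleate collagen fibrils, were called lower, and none was called higher. The summed level of the list did not follow, at 20490 and 21291 CPM, with Aldh3a1, which the epithelium also makes, as its most abundant member.

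Contractile and scar genes behaved alike, with 5 of 25 called lower, 1 higher and a median of -0.36. Loxl2, which cross-links collagen, had 326, 86 and 91 counts in sham, PNU-282987 and excision and was 3.77-fold lower (2.96 to 4.84), and Myl9, a myosin light chain, had 675, 275 and 197 and was 2.44-fold lower (2.12 to 2.82). Tnc, tenascin C, was the member called higher, with 22, 47 and 70 counts. Acta2, the marker of myofibroblasts, had 176, 149 and 109 and did not differ from sham beyond counting error (1.17-fold lower, 0.939 to 1.47). The shares of epithelium, stroma and endothelium in each sample are not known, and their part in these differences was not tested.

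Transcripts of the lens and retina lists, named for tissues behind the cornea, were present in both libraries. Which tissue these reads came from was not tested. Cryaa, the main α-crystallin of the lens, had 9525 counts in sham, 8774 in PNU-282987 and 175 in excision. The γ-crystallins differed more: Crygd had 839, 232 and 6 counts and was 3.60-fold lower (3.11 to 4.18), while Cryge had 93, 0 and 3 and was at least 30.8-fold lower. Crygf had 78, 0 and 0 and was at least 25.9-fold lower, and the copies are similar enough to exchange reads. Of 23 lens genes 5, all γ-crystallins, were called lower, with a median of -0.35, and the summed level was 994, 923 and 275 CPM. Of 17 retina genes 5 were called higher and 1 lower, with a median of 0.35. Among the 14 that reached the minimum in both libraries, 2 were called higher and 1 lower, and the median was 0.18. Rbp3, a retinoid carrier that reached it only in PNU-282987, had 19, 85 and 8 counts and was 4.50-fold higher (2.71 to 7.84). Nr2e3, a rod transcription factor, had 120, 53 and 4 and was 2.25-fold lower (1.62 to 3.17). Of 12 iris, ciliary body and pigment genes 2 were called lower, Tyrp1 (48, 13 and 16 counts) and Dct (211, 86 and 137), and 2 higher, Ttr (45, 111 and 42) and Aqp4 (4, 26 and 6). That list's median was -0.32, and 0.01 with no minimum and 3 counts added to both libraries. The part of lens, retina and iris in other results was not tested.

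The receptor that PNU-282987 binds was near the limit of detection. Chrna7 (gene ID 11441) had 11 counts in sham, 9 in PNU-282987 and 2 in excision, under the minimum, and was 1.22-fold lower than in sham (0.458 to 3.32), a difference not detectable at this depth. Chrnb3, another nicotinic subunit, was the cholinergic receptor gene called lower, with 62, 30 and 9 counts (2.05-fold lower, 1.31 to 3.29). Chrnb1, the muscle-type β subunit, had 279, 187 and 172. Secreted and membrane-bound Ly6 proteins, several of which bind nicotinic receptors, were far from the limit: Slurp1 had 97602 and 86657 counts in sham and PNU-282987, Psca 134476 and 158240, and Lynx1 12652 and 12930. Of 21 measured receptors and modulators 3 were called higher, Ly6e, Ly6d and Ly6c1, and 1 lower, with a median of 0.00. Of 47 genes listed, 40 were in the table.

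Genes reported to act downstream of α7 had 2 of 14 called lower, Tnf and Socs3, none higher, and a median of 0.19. Socs3 reached the minimum only through the sham library. Among the other 13, 1 was called lower and the median was 0.25. Jak2, the kinase that binds the receptor, had 1973 counts in sham, 2748 in PNU-282987 and 2143 in excision and was 1.40-fold higher (1.32 to 1.48). Stat3 had 4577, 5574 and 4849 counts and was 1.22-fold higher (1.18 to 1.27). Nfe2l2, which encodes NRF2, had 2542, 3437 and 2119 counts and was 1.36-fold higher (1.29 to 1.43). These stood above sham by more than counting error and below 2-fold. Hmgb1, a nuclear protein released on damage, had 3501, 3284 and 2806 counts and was 1.06-fold lower (1.01 to 1.11).

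Nerve genes were mostly under the minimum, with 7 of 23 neuron and axon genes in the table measured. Tubb3, the neuronal tubulin, had 9 counts in sham, 1 in PNU-282987 and 0 in excision. Piezo2, a mechanosensitive channel, had 2099, 838 and 1998 counts and was 2.49-fold lower (2.30 to 2.70). Snap25, a synaptic vesicle fusion protein, had 3, 30 and 5 counts and was 10.1-fold higher (3.13 to 51.5). Of 7 measured neuron and axon genes these 2 were called, 1 in each direction. Schwann cell genes had 1 of 10 called lower, Fabp7, with a median of -0.37.

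Guidance cues for axons had 4 of 28 called lower, none higher, and a median of -0.22. Slit2, a repellent, had 942 counts in sham, 371 in PNU-282987 and 118 in excision and was 2.52-fold lower (2.24 to 2.85). Sema3a, another repellent, had 146, 62 and 65 counts and was 2.34-fold lower. Unc5c and Plxnd1, receptors, had 68, 22 and 40 counts and 87, 33 and 99. Growth factors and their receptors outside the EGF family had 27 of 30 ratios below 1 and a median of -0.31, with 2 called lower and 2 higher. Among the 27 that reached the minimum in both libraries, 1 was called lower and 0 higher, and the median was -0.33. Igf1 had 112, 33 and 35 counts and was 3.37-fold lower (2.27 to 5.14), while Met, the receptor of hepatocyte growth factor, had 3649, 5112 and 3804. In the EGF family Epgn, epigen, was 2.06-fold lower (1545, 744 and 1163 counts, 1.89 to 2.26) and Hbegf 1.29-fold lower (7580, 5842 and 6033, 1.25 to 1.34). Wnt pathway genes had 4 of 32 called lower and none higher. Of these 32, 3 reached the minimum only through the sham library, and 1 of the other 29 was called lower. This was Dkk1, a secreted inhibitor, with 234, 97 and 15 counts (2.40-fold lower, 1.89 to 3.07). The Notch list had 1 of 13 called lower and the TGF-β and BMP list 1 of 28, Bmp6 (103, 33 and 68 counts).

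Of 18 long non-coding RNAs on the list 4 were called lower (22.2%) and none higher, beside 15.1% called lower among all non-coding genes. Their median was -0.54, and 13 had an interval wholly below equal levels. Of these 18, 3 reached the minimum only through the sham library. Among the other 15, 1 was called lower and the median was -0.42. Meg3 (gene ID 17263), an imprinted transcript, had 113 counts in sham, 14 in PNU-282987 and 88 in excision and was 8.03-fold lower (4.59 to 15.1). Rian, from the same imprinted cluster, had 77, 15 and 33 counts and was 5.10-fold lower (2.91 to 9.56). Malat1 and Neat1, abundant nuclear transcripts, had 23536, 15646 and 30640 counts and 32936, 22964 and 47199, and were lower by 1.47-fold to 1.53-fold and by 1.40-fold to 1.45-fold (intervals). Whether strand was kept in the counting is not given, so reads of overlapping genes may be included.

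Housekeeping groups differed little, which sets a scale only for genes of similar count. Ribosomal protein genes had no call among 41, with a median of -0.13 and 38 ratios below 1. Oxidative phosphorylation genes had no call among 36 and a median of -0.20. Glycolysis had 1 of 25 called lower, Pfkp, and a median of 0.15, antioxidant genes none of 37 and 0.16, and cholesterol and fatty acid synthesis none of 32 and -0.05. The median of the junction genes, 0.21, was of the size found in these groups. The hypoxia-linked genes Bnip3 and Adm, picked after their values were seen, were lower: Bnip3 (268, 75 and 90 counts, 3.55-fold, 2.74 to 4.65) and Adm (256, 81 and 50 counts, 3.14-fold, 2.44 to 4.09).

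**Figure D5:**
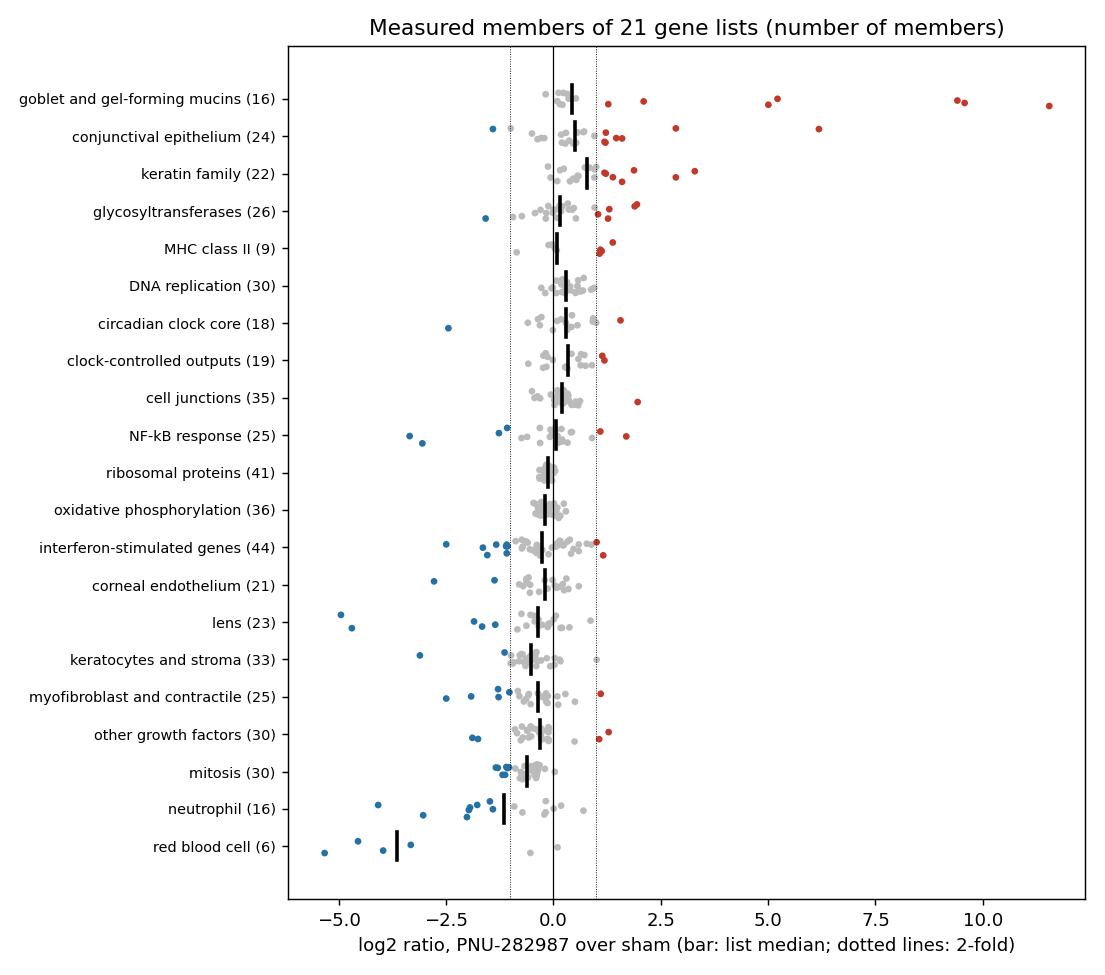
Log2 ratio of PNU-282987 over sham for the measured members of selected gene lists, with the number of members in brackets. Each point is a gene, coloured where called, bars are list medians, and dotted lines mark 2-fold. Goblet cell, conjunctival and keratin lists reach far to the right, red blood cell and neutrophil lists lie to the left, and ribosomal protein genes stay near 0.

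Single genes without a list completed the leading ratios. Casp1 (gene ID 12362), the protease that activates interleukin-1β, had 3 counts in sham, 196 in PNU-282987 and 99 in excision and was 65.7-fold higher (22.2 to 321). Its neighbour in function Casp4, chosen with its values known, had 3, 32 and 19 counts and was 10.7-fold higher (3.36 to 54.7). Both inflammatory caspases were at the detection limit in sham and above it in the other libraries. Rhox4a, a reproductive homeobox gene, had 2, 118 and 8 counts (59.3-fold higher, 16.1 to 496), while its near copy Rhox4b had 74, 33 and 37. Xlr3a had 156, 2 and 36 counts (77.6-fold lower, 21.1 to 646), while Xlr3b had 33, 29 and 155. Entpd4b had 15, 165 and 16 counts (11.1-fold higher, 6.52 to 20.2), with Entpd4 at 5, 9 and 3. In these families the copies are near-identical, so how reads were split between them is uncertain.

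On the lower side, Lars2 (gene ID 102436), the mitochondrial leucyl-tRNA synthetase, had 7459 counts in sham, 2108 in PNU-282987 and 12490 in excision and was 3.52-fold lower (3.35 to 3.69), the largest difference in CPM of any gene called lower. Nxph4, a secreted neurexin ligand, had 354, 52 and 116 counts and was 6.77-fold lower (5.05 to 9.24). Scx, a transcription factor of tendon, had 110, 19 and 34 counts and was 5.76-fold lower (3.52 to 9.92). Nppb, a natriuretic peptide, had 231, 46 and 58 counts and was 4.99-fold lower (3.63 to 7.01). LOC118568032, which has no assigned function in the table, had 137, 12 and 151 counts and was 11.4-fold lower (6.29 to 22.5).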

How the data were processed

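Cornea RNA from mice was sequenced as 3 libraries, 1 for each group. The deposited values are the authors' whole-number read counts per gene, in 1 table that lists every library, and they entered the analysis unaltered. Per the labels' protocols, TRIzol was used for extraction and the VAHTS Universal V6 kit for the libraries. The submitters' processing notes list HTSeq and R 3.2.0. Not given in the sources used here are the aligner, the build, the annotation, strandedness and the treatment of multiply mapped reads. Columns were matched to samples by title and groups were read from the treatment label.

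TMM factors came from edgeR 4.0.16 in R 4.3.3 over all 3 libraries and were 1.04 for sham, 0.980 for PNU-282987 and 0.985 for excision. Ratios of scaled counts were computed with SciPy 1.17.1, pandas 2.3.3 and NumPy 2.4.6 under Python 3.11.15. Apart from 3 counts in place of 0, nothing was added to the counts of these ratios. Intervals are exact conditional binomial (Clopper-Pearson) intervals at 95%. The limit allowed by 0 counts, 3 counts, equals 0.0768 CPM in sham and 0.0773 CPM in PNU-282987. With 1 library per group no p-values were computed. The scheme was run on simulated counts with counting error only, which cannot address variation from mouse to mouse or copies of the same molecule. Plots were drawn with matplotlib 3.10.9, and size factors from DESeq2 1.42.0 served as an alternative.

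The measured genes and the 72 gene lists were chosen with earlier results of these data known. Genes were named if they were called, reached 100 counts in the higher library and were among the 15 largest ratios or the 15 largest CPM differences per direction, without gene models, pseudogenes and immune receptor segments. To these were added list members (up to 4 called per direction and members showing that a list did not move) and a fixed set of 15 genes tied to the study's question. Promoter windows came from RefSeq GRCm38.p6, and 11043 of the 13904 genes matched by gene ID. Windows of a single chromosome were left out before matching, so its genes count as having none. The interferon element (GAAA, any 2 bases, GAAA), the CHR (TTTGAA), the CCAAT box and the E-box (CACGTG) were searched on both strands, and matches may overlap each other.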

Additional observations from a re-analysis of the deposited data

How the results depend on the processing

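With scaling to total counts in place of TMM, the median log2 ratio moved from 0.00 to -0.079, 310 genes were called higher and 801 lower, and the share of calls that were higher went from 34.2% to 27.9%. DESeq2 size factors (357 and 675), TMM factors from these libraries alone (354 and 682), a 99% interval (303 and 613) and leaving out 169 marker genes of other tissues (324 and 658) kept both counts within 1.5 times of 354 and 681. The other settings moved them by their construction, since they test other genes or ask for other folds. No minimum gave 649 higher and 1080 lower, a minimum of 50 counts 196 and 357, and a minimum of 100 counts 124 and 192. A 1.5-fold threshold gave 700 and 1354, and a 3-fold threshold 152 and 274. A minimum of 20 counts in both libraries, chosen after seeing the data, gave 162 and 314. Of 219 named genes, 7 lost their call under total counts (Adam8, Bdnf, Cd74, Epsti1, Fut4, Mmp15 and Serpina1b), 1 under DESeq2 size factors (Ccl27a), and none reversed. Total count scaling changed the sign of the median in 5 of the 70 lists that had a median: membrane mucins, adipocyte, NF-kB response, complement, and lipoxygenases with prostaglandin enzymes. The sign also changed in 11 lists with a minimum of 100 counts, among them macrophage, M2-type and interferon-γ GTPase genes, in 10 with no minimum and 3 counts added, and in 2 with DESeq2 size factors. No paired analysis was possible because each group had 1 library and no test was made. Depth limits genes near the detection limit, such as Chrna7, and the spread between animals was not measured.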

Other observations

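The list of cytochromes P450, which does not hold Cyp2a5, had 2 of 17 measured members called higher, Cyp4a12a and Cyp7b1, none lower, and a median log2 ratio of 0.22. Cyp4a12a, a fatty acid hydroxylase, had 368 counts in sham, 934 in PNU-282987 and 444 in excision and was 2.55-fold higher (95% counting interval 2.26 to 2.89). Cyp7b1, an oxysterol hydroxylase, had 21, 65 and 39 counts and was 3.11-fold higher (1.88 to 5.36). Aquaporins and osmotic stress genes, which bear on a drying surface, had 1 of 18 called higher, Aqp4 (4, 26 and 6 counts), and a median of 0.19. Aqp5, the water channel of corneal epithelium and lacrimal gland, had 234339, 267419 and 243455 counts and was 1.15-fold higher (1.14 to 1.15).

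The limbal and progenitor list had 1 of 24 called higher, Krt15, and 3 lower, Socs3, Mki67 and Mmp10, with a median of -0.12. Of these, Socs3 and Mmp10 reached the minimum only through the sham library. Among the 22 that reached it in both libraries, Krt15 was called higher and Mki67 lower, and the median was -0.09. Trp63, the transcription factor of basal cells, had 6053, 6870 and 6771 counts in sham, PNU-282987 and excision, and Gpha2, a limbal hormone subunit, had 1126, 1532 and 2332. Padi1, a peptidylarginine deiminase chosen with its values known, had 23, 164 and 108 counts and was 7.17-fold higher (4.62 to 11.6). Complement genes had no call among 16, and arginase and polyamine genes had 2 of 16 called lower, Slc7a2 (24, 11 and 9 counts) and Ckb (317, 152 and 123). Vascular genes had 2 of 11 called higher and 1 lower.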
